A study of Gallus gallus with 20 samples.

Results

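SUZ12 peaks that stood alone in the embryonic chicken lens were examined. SUZ12 is a core subunit of Polycomb repressive complex 2 (PRC2), which trimethylates lysine 27 of histone H3 (H3K27me3). Peaks were chosen by 2 measured values, their width and their overlap with the other peak lists. A peak was taken when it lay on an assembled chromosome, was at least 500 bp wide and shared no base with any peak of the EZH2, JARID2, AEBP2, H3K27me3 or H3K4me3 lists. There were 1630 such peaks, 2.99% of the 54487 SUZ12 peaks on assembled chromosomes and 17.5% of the 9294 that were at least 500 bp wide. Neither the width of these peaks nor their absence from the other lists is therefore a finding.

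The tissue was the lens of chicken (Gallus gallus) embryos of embryonic day 4.5, collected as 3 pools of about 44 lenses. CUT&RUN directs a nuclease to an antibody on chromatin and releases the DNA around the bound protein, and each reaction used 100000 nuclei. Each of the 6 antibodies had 3 libraries and non-specific IgG had 2, for 20 libraries in all. The antibodies were used at dilutions of 1 in 100 for SUZ12 and EZH2, 1 in 50 for JARID2, H3K27me3, H3K4me3 and IgG, and 1 in 25 for AEBP2. All embryos were of the same stage, with no treatment or genotype named. Each antibody is represented by 1 peak list and no value per library, so there is no replicate error and no comparison below could be tested against one. Read depth behind the peaks is unknown. Intervals in parentheses after shares are 95% exact binomial (Clopper-Pearson) intervals. They cover counting error only and treat neighbouring peaks as independent.

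PRC2 consists of the methyltransferase EZH1 or EZH2 with SUZ12, EED and a histone-binding protein, and SUZ12 holds the complex together. JARID2 and AEBP2 are accessory subunits that join one form of the complex. In embryonic tissue PRC2 is best known from the promoters of developmental regulators, where it keeps H3K27me3 over genes of other lineages. H3K4me3, by contrast, marks active and poised promoters. The peaks described here are SUZ12 peaks at which no EZH2, JARID2, AEBP2 or mark peak was called. EZH1, EED and other accessory subunits were not profiled, so these peaks are not shown to lack the rest of the complex.

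The solitary SUZ12 peaks had a median fold close to that of the other wide SUZ12 peaks. Their width, which the choice itself used, had a median of 579 bp (quartiles 533 and 668, maximum 2108), against 722 bp for the 7664 other SUZ12 peaks of at least 500 bp. The fold of a peak, the authors' enrichment over the peak caller's background, had a median of 4.27 in solitary peaks (quartiles 3.39 and 5.32, range 1.67 to 18.2) and of 4.38 in the other wide SUZ12 peaks (maximum 40.7). The medians were thus alike, as the plot of fold against width shows, but a fold of 10 or more was reached by 18 of 1630 solitary peaks and 323 of 7664 others. The authors' −log10 q, in which a higher value is more significant, separated them more, with a median of 6.49 in solitary peaks and 20.0 in the others. A value of 5 was reached by 66.6% of solitary peaks and 89.1% of the others. Of the 5448 SUZ12 peaks in the top 10% by fold, 204 were solitary wide peaks, which is 12.5% of the solitary wide peaks. The strongest of them ranked 28 in the whole list. Fold and q were identical to those of at least 1 other solitary peak in 46.8% of cases, with up to 34 peaks sharing 1 pair of values, so ranks among equal values carry no order.

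**Figure D1:**
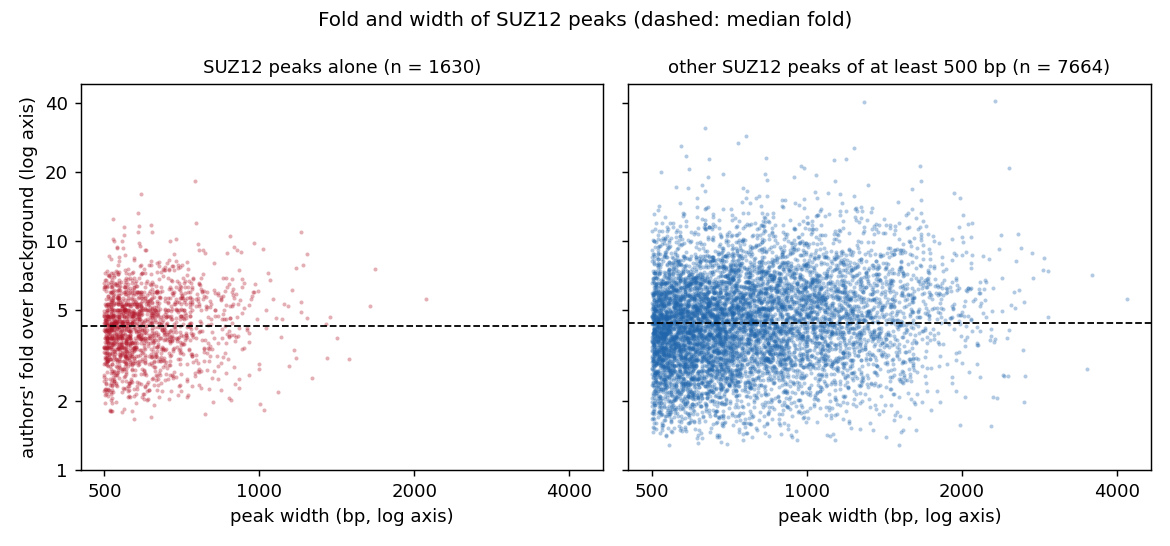
Each point is 1 SUZ12 peak, with its width in bp on the horizontal log axis and the authors' fold over background on the vertical log axis, for solitary peaks (left) and all other SUZ12 peaks of at least 500 bp (right). The dashed lines mark median folds of 4.27 and 4.38, and 34 of the 1630 solitary peaks reach 1 kb.

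The width limit fell within a continuous distribution. The 143 solitary peaks of 500 to 509 bp had a median fold of 3.90 (range 1.96 to 7.40), and the 138 of 490 to 499 bp just outside the limit had 4.07 (1.63 to 10.6). Among SUZ12 peaks of 190 to under 250 bp 64.9% overlapped no other list, among those of 500 to under 750 bp 25.7%, and among those of 1 kb or more 1.84%. A wider peak covers more sequence, and the part of size in these shares was not tested.

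Solitary did not mean remote from the other proteins. The nearest peak of any other list was at a median distance of 1.90 kb, and 523 peaks (32.1%) had one within 1 kb. JARID2 was the closest list with a median of 4.12 kb, followed by AEBP2 with 6.03 kb and EZH2 with 10.7 kb. H3K4me3 was 16.9 kb away and H3K27me3 41.5 kb. The lists differed in length, with 48093 peaks for JARID2, 168110 for AEBP2, 25935 for EZH2, 11079 for H3K4me3 and 22875 for H3K27me3, and the distances were not adjusted for it. An H3K27me3 peak lay within 1 kb of 39 solitary peaks (2.39%), and 728 (44.7%) had none within 50 kb. For H3K4me3 these counts were 81 (4.97%) and 377 (23.1%). Other SUZ12 peaks were nearby in most cases, with a median distance of 2.84 kb and 1100 of 1630 peaks (67.5%) within 5 kb.

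Most solitary SUZ12 peaks lay inside protein-coding genes and away from their ends. Of the 1630 peaks, 1221 overlapped a protein-coding gene body, 74.9% (72.7 to 77.0), and 773 (47.4%) did so with no coding gene end within 5 kb. Within 1 kb of such an end lay 214 peaks, 13.1% (11.5 to 14.9). In non-overlapping classes, 214 peaks were at a coding gene end, 1068 (65.5%) inside a coding gene only, 93 (5.71%) only at a non-coding gene, 83 (5.09%) outside genes within 5 kb of a coding end, and 172 (10.6%) farther out. The median fold differed little between these classes, from 4.05 outside genes near an end to 4.38 in peaks farther out and at non-coding genes. The gene table gives no strand, so starts and ends of genes could not be told apart and intron and exon positions were not assigned.

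Shares by summit can be set beside the genome itself. Summits lay inside coding genes in 73.5% of solitary peaks (71.3 to 75.6), where coding genes cover 55.6% of the genome, a ratio of 1.32. Within 1 kb of a coding gene end lay 10.2% of summits (8.76 to 11.8), where such windows cover 5.77% of the genome and 4.58% of the genome free of the other lists. The ratio to the whole genome was 1.77 for solitary peaks. It was 9.16 for wide SUZ12 peaks in H3K27me3, 13.6 for those in H3K4me3 alone and 2.19 for those with EZH2, JARID2 or AEBP2 but no mark.

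By position, solitary SUZ12 peaks were closest to SUZ12 peaks with another subunit but no mark. Gene ends held 13.1% of solitary peaks (11.5 to 14.9) and 15.1% (13.0 to 17.4) of the 1075 wide SUZ12 peaks with another PRC2 subunit outside both marks. The share was 58.8% of the 1671 wide SUZ12 peaks in H3K27me3 and 82.1% of the 4918 in H3K4me3 alone. It was 8.02% of the 26415 narrower solitary SUZ12 peaks. JARID2 peaks chosen in the same way, at least 500 bp wide and in no other list, lay at gene ends in 10.6% of 1008 cases (8.78 to 12.7), and AEBP2 peaks in 1.72% of 16346. Outside genes and more than 5 kb from a coding end lay 10.6% of solitary SUZ12 peaks, 16.8% of solitary JARID2 and 43.9% of solitary AEBP2 peaks. Marks lie at gene ends themselves, so a rule that removes peaks in marks lowers the share at ends by construction, and none of these differences was tested.

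**Figure D2:**
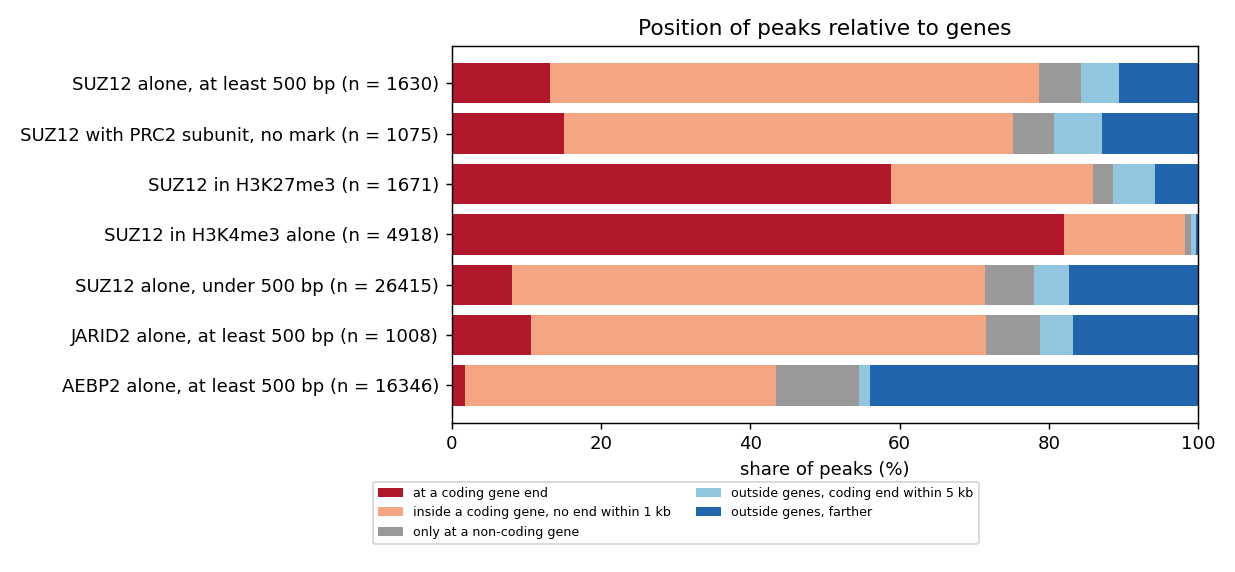
Each bar gives the shares (%) of 1 set of peaks in 5 non-overlapping positions relative to genes, with the number of peaks beside its name. Solitary SUZ12 peaks (top bar) were inside a coding gene with no end within 1 kb in 65.5% of cases, and SUZ12 peaks in H3K4me3 alone were at a coding gene end in 82.1%.

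The genes that hosted solitary peaks mostly carried H3K4me3 at their ends. Of 1165 solitary peaks whose summit lay in exactly 1 coding gene, 648 were in genes with H3K4me3 and no H3K27me3 at the ends, 55.6% (52.7 to 58.5). These genes make up 42.0% of the sequence inside single coding genes. Genes with H3K27me3 alone hosted 105 peaks, 9.01% (7.43 to 10.8), against 18.9% of the sequence. Genes with both marks hosted 17.6% against 19.3%, and genes with neither mark 17.8% against 19.7%. In the sequence outside the other 5 lists these shares were 43.5% for H3K4me3 alone and 17.3% for H3K27me3 alone. The other lists covered 7.22% of the sequence of genes with H3K4me3 alone and 18.0% with H3K27me3 alone. The rule drops a whole peak on 1 shared base, so sequence shares do not measure its full effect, which was not tested.

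Other SUZ12 peaks differed by the marks they overlapped. Of the other wide SUZ12 peaks with a single host gene, 63.5% of 5448 were in genes with H3K4me3 alone and 9.97% in genes with H3K27me3 alone. That set includes peaks that overlap a mark. The shares were 84.0% and 1.74% of 3630 for wide SUZ12 peaks in H3K4me3 alone. They were 6.03% and 35.6% of 1094 for those in H3K27me3, with 51.6% in genes with both marks. Marks within 1 kb of gene ends set the gene states, so these shares depend in part on how the sets were chosen. The size of this effect was not tested. For wide SUZ12 peaks with another subunit and no mark the H3K4me3-alone and H3K27me3-alone shares were 47.0% and 12.6% of 724. Solitary JARID2 peaks lay in genes with H3K4me3 alone in 40.8% of 666 cases (37.1 to 44.7) and in genes with H3K27me3 alone in 17.7% (14.9 to 20.8), close to the sequence shares. The narrower solitary SUZ12 peaks resembled the wide ones, with 52.9% and 12.2%. The share of solitary SUZ12 peaks in genes with H3K4me3 alone was between 53.2% and 57.6% under the 8 other rules for choosing peaks. The host genes were long, with a median length of 46.0 kb for the 1031 coding genes that held at least 1 solitary peak, against 12.1 kb for all 17839 coding genes. A longer gene offers more sequence for peaks, and the part of length in this difference was not tested.

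**Figure D3:**
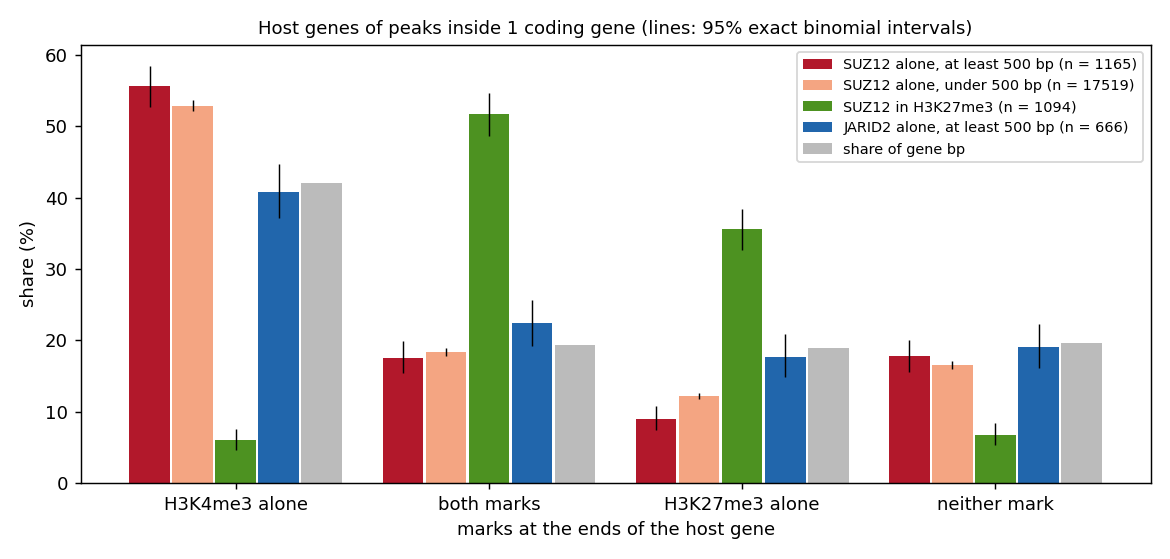
Shares (%) of peaks by the histone marks within 1 kb of the ends of their host gene, for peaks whose summit lies in exactly 1 coding gene, with 95% exact binomial intervals as lines; grey bars give the share of single-gene sequence in each state. Solitary SUZ12 peaks exceed the grey bar for H3K4me3 alone (55.6% against 42.0%) and lie below it for H3K27me3 alone (9.01% against 18.9%), while solitary JARID2 peaks lie close to both.

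Solitary SUZ12 peaks were found on 32 of 41 chromosomes at a mean of 1.57 per Mb, and they were denser on microchromosomes. Chicken chromosomes range from large macrochromosomes to gene-rich microchromosomes. Microchromosomes carried 628 solitary peaks at 3.49 per Mb, and macrochromosomes 1 to 5 carried 652 at 1.07 per Mb. The ratio of these densities was 3.25 (2.91 to 3.63). For the other wide SUZ12 peaks it was 2.33 (2.21 to 2.45), and for coding genes 2.66. The ratio of solitary peaks changed with the rule for choosing them. It was 2.61 at a minimum width of 300 bp, 4.24 at 750 bp and 2.78 without the AEBP2 list. The part of the rule in these differences was not tested. Counted per 100 coding genes, microchromosomes held 10.8 solitary peaks and macrochromosomes 8.83, a ratio of 1.22 (1.09 to 1.37). Intermediate chromosomes 6 to 10 held 11.5 per 100 coding genes (292 peaks, 1.996 per Mb). The dot chromosomes, the most gene-rich class, held 1.97 per 100 coding genes (21 peaks, 1.74 per Mb). They also held only 68 other wide SUZ12 peaks. Solitary peaks were 23.6% of wide SUZ12 peaks on dot chromosomes, 20.8% on microchromosomes and 15.8% on macrochromosomes.

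Single chromosomes stood out within these classes. Chromosome 26, a microchromosome of 5.35 Mb, had 46 solitary peaks or 8.60 per Mb, and they made up 33.6% of its 137 wide SUZ12 peaks, against 17.5% genome-wide. Chromosome 21 followed among microchromosomes with 38 peaks, 5.60 per Mb and 27.5%, and chromosome 24 had 28 peaks, 4.32 per Mb and 27.2%. Chromosome 28 had the highest density of other wide SUZ12 peaks, 28.4 per Mb, but solitary peaks were 16.3% of its wide peaks. The dot chromosome 39 reached 11.5 per Mb on 2 peaks over 0.174 Mb.

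The Z sex chromosome was sparse. It held 37 solitary peaks at 0.430 per Mb, a ratio to macrochromosomes of 0.400 (0.279 to 0.558), against 0.685 (0.611 to 0.767) for the other wide SUZ12 peaks. Solitary peaks were 9.89% of the wide SUZ12 peaks on Z and 15.8% of those on macrochromosomes. Female birds carry a single Z, and the sex of the pooled embryos is not stated in the labels, and its part in these values was not tested. The W chromosome had no solitary peak among 7 wide SUZ12 peaks. The other 8 chromosomes without one, among them chromosome 33, had at most 1 wide SUZ12 peak each.

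**Figure D4:**
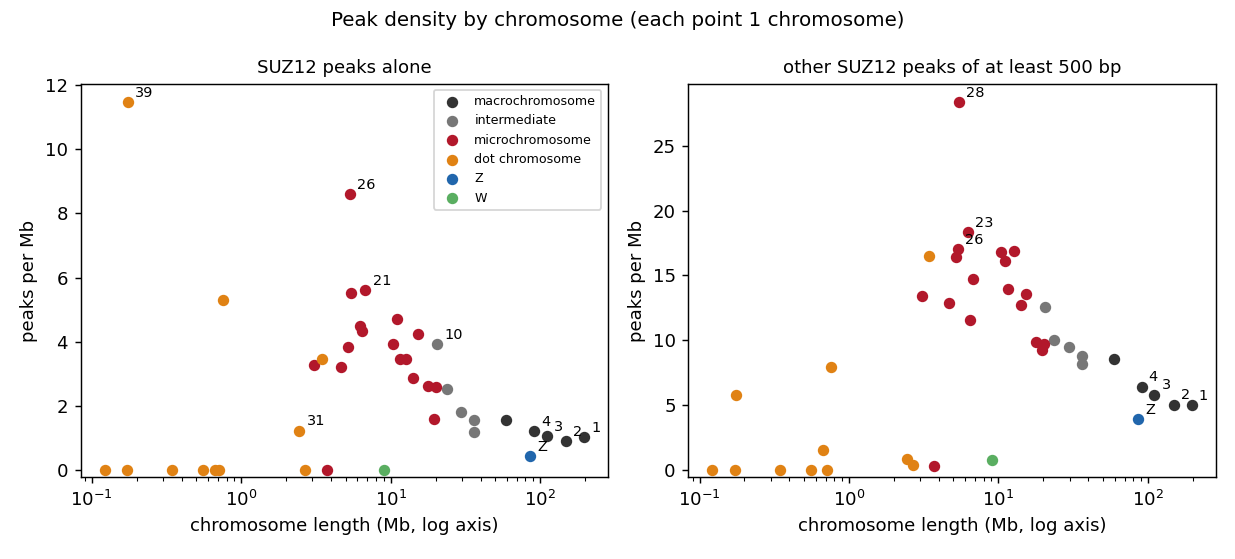
Each point is 1 chromosome, with its length in Mb on the horizontal log axis and peaks per Mb on the vertical axis, for solitary SUZ12 peaks (left) and the other SUZ12 peaks of at least 500 bp (right). Most microchromosomes lie above the macrochromosomes in both panels (chromosome 33, with no solitary peak, does not), chromosome 26 reaches 8.60 solitary peaks per Mb, and Z lies lowest among the large chromosomes at 0.430.

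A part of the solitary peaks came in groups. The median distance to the nearest other solitary peak was 81.9 kb, and 640 of 1630 peaks, 39.3% (36.9 to 41.7), had another within 50 kb. These 640 formed 257 clusters, of which 184 were pairs and 31 held 4 or more peaks, 146 in all. The other 990 peaks were single. Among 1671 wide SUZ12 peaks in H3K27me3, a set of similar size, 42.7% (40.3 to 45.1) had a neighbour of their own kind within 50 kb and 27.8% within 10 kb. Within 10 kb the share of solitary peaks was 14.1%. Of the 1075 wide SUZ12 peaks with another subunit and no mark 22.7% had one within 50 kb and 7.91% within 10 kb. For the 4918 in H3K4me3 alone these shares were 64.4% and 26.8%. Of the 1008 solitary JARID2 peaks 25.4% had one within 50 kb, but a longer list has closer neighbours and the lists differ in length.

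The largest cluster held 9 solitary peaks over 88.4 kb of chromosome 10 (GRCg7b, 5710167 to 5798557). It began in TRPM1, a cation channel gene of melanocytes and retinal bipolar cells, ran through MTMR10, a myotubularin-related gene, and ended in FAN1, which encodes a DNA crosslink repair nuclease. TRPM1 held 4 of the peaks with folds of 4.65, 5.64, 5.92 and 6.19. A peak of fold 2.36 lay outside both genes between TRPM1 and MTMR10, within 1 kb of a gene end. MTMR10 held 1 peak of fold 3.96, and FAN1 held 3 with folds of 4.70, 5.19 and 4.11. The FAN1 peak of fold 5.19 was 1644 bp wide, the third widest solitary peak. Of all 30 SUZ12 peaks in the span 27 overlapped no other list, as did 51.5% of the 54487 SUZ12 peaks on assembled chromosomes. The span was picked for its many solitary peaks, which raises this count by construction. The span held 4 JARID2 peaks, 1 AEBP2 peak and 1 H3K4me3 peak, and no EZH2 or H3K27me3 peak.

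The first peak of this cluster covered a microRNA gene. It was 1372 bp wide (chromosome 10, 5710167 to 5711538), had a fold of 4.65 and a −log10 q of 8.83, and contained the whole of MIR204-2 (5710226 to 5710326) and lay within 1 kb of MIR1574. The microRNA miR-204 is expressed in the lens and other eye tissues of vertebrates. The nearest H3K4me3 peak was 8.71 kb away, EZH2 65.8 kb and H3K27me3 116 kb. The other copy of the gene, MIR204-1, lies inside TRPM3 on chromosome Z, 59.1 kb from the nearest solitary peak and overlapped by no peak of any list. MIR204-2 and MIR204-1 were looked up after the position of this peak was seen. In all, 11 of the 1630 solitary peaks lay within 1 kb of an annotated microRNA gene. The others included peaks at MIR126 (fold 3.59), a microRNA of endothelial cells, MIR107 (4.70) and MIR32 (5.95). The same count was not made for other SUZ12 peaks or over all microRNA genes, so it is no result about microRNA genes as a group. No sequences are printed, because the sources used here held none for this genome.

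A cluster of 5 solitary peaks over 49.8 kb of chromosome Z (35684657 to 35734502) lay at the end of TRPM3, and 3 of the 5 were in the gene. TRPM3 encodes a cation channel in which human variants cause inherited cataract. The folds were 5.54 and 6.75 at the first 2 peaks, which touched only a non-coding gene, 6.89 at the TRPM3 end, and 8.14 and 4.99 farther inside it. None of the 19 SUZ12 peaks in the span overlapped another list, against 51.5% without such an overlap among all SUZ12 peaks. This span too was picked for its solitary peaks. The span held 1 JARID2 peak and no EZH2, AEBP2, H3K4me3 or H3K27me3 peak. Of the 13 clusters with at least 5 peaks this was the one on Z.

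The locus of the delta-crystallins held 1 of the 2 clusters of 6 peaks. ASL1 and ASL encode delta-crystallin, the most abundant protein of the embryonic chicken lens, and argininosuccinate lyase, and a lens enhancer is known within an intron of the delta-crystallin gene. On chromosome 19 (5425140 to 5553374), 6 solitary peaks spanned 128 kb. The peak inside ASL (5425140 to 5425668, in a gene at 5420675 to 5429608) had a fold of 7.30 and was 529 bp wide. The peak inside ASL1 (5433821 to 5434663, in a gene at 5433498 to 5441253) had a fold of 5.49, was 843 bp wide and had a −log10 q of 37.7, the highest in this cluster. ASL carried 7 SUZ12 peaks in all, of which 5 overlapped no other list, and ASL1 carried 3, of which none overlapped another list. Among all SUZ12 peaks 51.5% overlapped no other list. No EZH2, JARID2, AEBP2 or H3K27me3 peak overlapped either gene, while H3K4me3 had 2 peaks at ASL and 1 at ASL1. The annotated bodies of TPST1, a tyrosylprotein sulfotransferase gene, and CRCP run across these genes, so both peaks also counted to TPST1 and CRCP. The 4 remaining peaks had folds of 2.51 in TPST1 and CRCP, 5.12 in TPST1, 6.17 in RABGEF1 and 4.604 in TMEM248.

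The other large clusters described here lay in named coding genes, except 1 on chromosome 4. On chromosome 14, 8 peaks with folds of 2.39 to 6.47 spread over 217 kb, 2 each in TNRC18, FBXL18 and RNF216 and 1 each in SMURF1, a ubiquitin ligase gene, and KPNA7. That span, which includes ACTB, also held 24 H3K4me3 and 25 JARID2 peaks. On chromosome 26, 6 peaks over 72.1 kb lay in MTCH1, SOX13, ETNK2 and PLEKHA6 with folds of 2.32 to 5.84. A second group on chromosome 10, with 5 peaks over 98.6 kb and folds of 3.22 to 9.22, lay in TJP1, which encodes the tight junction scaffold ZO-1, and in MPHOSPH10, whose annotated body spans 1077 kb and includes TJP1. The gene ARVCF, which encodes a catenin of cell junctions, held all 5 peaks of a cluster on chromosome 15 with folds of 3.10 to 9.07. On chromosome 4, a cluster named after its values were seen had 5 peaks over 122 kb, which lay 107 kb from the nearest named coding gene, RXFP2, in a span with 7 H3K27me3 peaks.

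**Figure D5:**
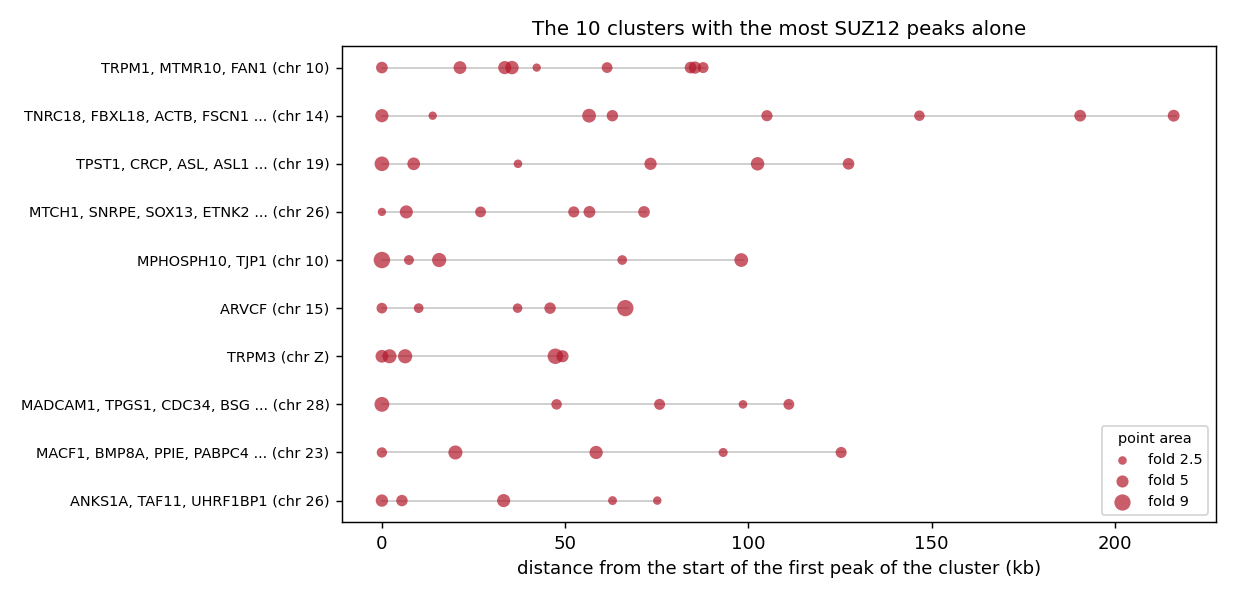
Each row is 1 of the 10 clusters with the most solitary SUZ12 peaks, named by coding genes in its span (clusters of 5 peaks are ordered by their highest fold, and 3 more are not drawn), and each point is 1 peak at its distance in kb from the first peak, with area proportional to the authors' fold. The TRPM1 cluster holds 9 peaks over 88.4 kb, and the ASL1 and ASL cluster holds 6 over 128 kb.

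Counted by gene, 1031 of 17839 coding genes held a solitary peak in the body, a background of 5.78%, and 46 genes held 3 or more. ARVCF led with 6, followed by MPHOSPH10, LSAMP, a neuronal adhesion gene of 965 kb, and GIMAP7L5 with 5 each. Genes with 4 were MSI2, an RNA-binding protein gene, TPST1, TJP1, TRPM1, ANKS1A, ANKRD11, a chromatin regulator gene, CNTFR, a cytokine receptor gene, SPTBN1, which encodes a spectrin of the membrane skeleton, and XYLT1. Per length the order was different, with 4.91 peaks per 100 kb in ANKRD11, 4.67 in ANKS1A and 4.58 in TPST1, and 0.518 in LSAMP and 0.464 in MPHOSPH10. In MSI2 the 4 peaks had folds of 5.02, 4.65, 3.57 and 7.78, and the 69.9 kb they spanned held 4 JARID2 peaks and no EZH2, AEBP2, H3K4me3 or H3K27me3 peak.

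At gene ends, 277 coding genes had a solitary peak within 1 kb, a background of 1.55%. H3K4me3 alone marked 148 of them (53.4%), both marks 22 (7.94%), H3K27me3 alone 26 (9.39%) and neither mark 81 (29.2%), against 45.3%, 12.0%, 14.0% and 28.7% of all coding genes. A wide SUZ12 peak that was not solitary was also at an end of 90 of the 277 (32.5%), against 35.8% of all coding genes. Marks within 1 kb of the ends set these gene states, and solitary peaks were chosen to overlap no peak of the other lists. The shares therefore depend in part on the choice of peaks, and the size of this effect was not tested.

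The strongest solitary peak at a named gene end was at SLC52A3, a riboflavin transporter gene on chromosome 20. It was 581 bp wide, with a fold of 10.97 and a −log10 q of 110, the highest −log10 q of all solitary peaks. SLC52A3 had neither mark. Its peak lay 0.981 kb from the gene and 0.366 kb from a JARID2 peak. The peak was thus not kept when no other peak was allowed within 1 kb. MAPK1IP1L followed with 10.5, and 1 peak of 9.41 and 893 bp lay at both ARPC4, which encodes a subunit of the actin-nucleating Arp2/3 complex, and TTLL8. ANXA2, an annexin gene, had 8.92 with neither mark at its ends. The neighbours KLHDC2 and NEMF, a ribosome quality control gene, shared a peak of 8.86, and ILKAP and KIF1A, a neuronal kinesin gene, shared 1 of 8.03. ITPKC had 7.72, POMT1 and PRRC2B shared 7.48, and RC3H1 and SERPINC1, the antithrombin gene, shared 7.46. FGGY and GIN1 had 7.40 each. The B-cell regulator gene PAX5 had 7.23 with H3K27me3 alone at its ends, and DAPK2, KCNJ3, a potassium channel gene, and SNRPD1, a spliceosome gene, had 7.20 each. Of these 20 genes 11 had H3K4me3 and no H3K27me3 at their ends, with genes that shared a peak counted separately. That state held for 53.4% of the 277 genes with a solitary peak at an end and 45.3% of all coding genes.

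The strongest solitary peaks lay at gene ends about as often as all of them, with 13.2% (10.1 to 16.8) of the 418 at or above the upper fold quartile, against 13.1% of all. The highest fold, 18.2, belonged to a peak of 750 bp on chromosome 3 (24294120 to 24294869) in a coding gene without a name, 373 kb from the nearest named coding gene, ZFP36L2. The second, 16.05, lay outside genes on chromosome 21, 45.3 kb from AJAP1. The next named hosts were RGS6, a regulator of G-protein signalling, with 13.3, and LRP1, a lipoprotein receptor gene, with 12.5. LRP1 held 3 solitary peaks with folds of at least 6.18. SAMD11 had 11.7, the kinase gene MAP3K20 11.6 and SIPA1L2 11.5. A peak of 10.6 lay in EZH1.

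The 10 widest solitary peaks had folds of 2.53 to 7.51, against a median of 4.27 in all solitary peaks. The widest, 2108 bp on chromosome 25 (276534 to 278641), had a fold of 5.57 and lay 30.5 kb from ANP32E and 40.7 kb from LMNA, the lamin A gene. RCOR1, which encodes the co-repressor CoREST, held 1 of 1681 bp with a fold of 7.51. Peaks of 1493 bp in DKC1 and MPP1, 1414 bp at PTGDS and C8G, 1352 bp in ISM2, 1346 bp at MAPK10, 1267 bp in PALM and 1237 bp near LRRC15 had folds of 2.53 to 4.62. The LRRC15 peak ended 0.002 kb from an AEBP2 peak, and the widest peak and the RCOR1 peak were 0.380 kb and 0.378 kb from one.

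Among 17 lists of genes, 532 of 571 names matched the gene table, and they stood for 523 distinct genes. Of these 523, 9 had a solitary peak at an end and 39 in the body, to be read against 1.55% and 5.78% of all coding genes. Of 23 lens fiber genes, 4 held a solitary peak in the body (17.4%, against 5.78% of all coding genes), ASL with a fold of 7.30, ASL1 with 5.49, CRYBA1, a beta-crystallin gene, with 3.54, and TDRD7, an RNA granule gene, with 2.67. All 4 had H3K4me3 alone, and ASL1 was the 1 fiber gene with a peak at an end (4.35%, against 1.55%). Of 26 lens epithelium and receptor genes, 5 held a peak in the body (19.2%, against 5.78%). The growth factor receptor gene FGFR3, the laminin gene LAMA1 and the Notch ligand gene JAG1 had 2 each. The cadherin gene CDH2 and the collagen gene COL4A1 had 1 each. JAG1 (3.22) and PDGFRA (3.59) had 1 at an end (7.69% of the 26, against 1.55%). Of 29 lens transcription factor genes 2 held a peak in the body (6.90%, against 5.78%), EYA2 with 3.10 and TFAP2A with 3.68, and none at an end. Per Mb of gene body, lens fiber genes had 16.1 solitary peaks, from 4 peaks over 0.249 Mb. Lens epithelium and receptor genes had 4.16 per Mb and lens transcription factor genes 1.53, against 2.12 over all coding genes.

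Chromatin genes held solitary peaks in 9 of 34 cases (26.5%, against 5.78%). The histone acetyltransferase gene CREBBP had 3 with folds of 3.11 to 8.55, and KDM2B, whose product binds unmethylated CpG and recruits a Polycomb complex, had 3 with folds of 5.39 to 6.63. ARID1A, CHD7, DNMT3A, KDM5A, KDM5B and SETD2 were among those with 1 each. Per Mb of gene body the 34 chromatin genes had 4.62 solitary peaks, against 2.12 over all coding genes. Of 10 PRC2 subunit genes only EZH1 held any (10%, against 5.78% in the body and 1.55% at an end). It had 2 peaks of 4.05 and 10.6 in a body of 15.1 kb, the first also at a gene end. The peak of 10.6 lay 0.139 kb from an AEBP2 peak. EZH1 was also overlapped by 2 EZH2 peaks and by 1 peak each of JARID2, AEBP2 and H3K4me3.

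Developmental regulators of other lineages gave small counts, to be read against 5.78% of all coding genes in the body and 1.55% at an end. No HOX gene of 34 held a solitary peak, over 0.289 Mb of gene body in all. Of 50 neural and retinal factor genes 1 did, LMX1B with 2.59, at 1.48 peaks per Mb of body over 0.674 Mb, against 2.12 per Mb over all coding genes. Of 45 mesoderm and endoderm factor genes 1 did (2.22%), TBX6 with 4.91, at 0.892 per Mb. Of 45 signalling ligand genes 4 did (8.89%), FGF12, FGF13, FGF16 and TGFB2, the last with 6.32, at 1.998 per Mb. None of these lists had a member with a solitary peak at an end, and lists this short allow no statement that they differ from other genes. Any SUZ12 peak, solitary or not, was at an end of 28 of the 34 HOX genes (82.4%) and 40 of the 50 neural and retinal ones. Shares in other lists lay on both sides of these. They were higher for ribosomal protein genes (54 of 58, 93.1%) and housekeeping genes (34 of 39, 87.2%). Lower shares were found for signalling ligand genes (28 of 45, 62.2%) and retina and neuron markers (10 of 17, 58.8%). The share over all coding genes is not given, so these counts allow no statement for or against a preference for developmental regulators.

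Lists of genes of basic cell functions gave small counts at gene ends, with shares on both sides of the 1.55% of all coding genes. The ribosomal protein genes RPL9 (3.76) and RPL19 (3.65) were 2 of 58 with a solitary peak at an end (3.45%, against 1.55%). CDK1, the mitotic kinase gene, was 1 of 30 cell cycle genes (3.33%) with 2.58, and none of 39 housekeeping genes had one. In the body LDHA (4.44) and PSMD1 (4.55) were 2 of 39 housekeeping genes (5.13%, against 5.78%). Per Mb of body the housekeeping genes had 4.51 solitary peaks, from 2 peaks over 0.444 Mb, against 2.12 over all coding genes. Of 49 neuronal adhesion and synapse genes 8 held peaks in the body (16.3%), but these genes are long and had 0.615 solitary peaks per Mb of body, against 2.12 overall. Among marker genes of tissues next to the lens, none of 13 blood or 17 periocular mesenchyme markers held a solitary peak in the body. Of 13 endothelial markers 1 did (7.69%), FLT1 with 3.04, and of 17 retina and neuron markers 1 (5.88%), ELAVL4 with 2.39, against 5.78% of all coding genes. These list counts are small, and none was tested.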

How the data were processed

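Per the submitters' processing notes, the build was GRCg7b, and MACS2 2.2.7.1, Bowtie2 2.4.1 and Trim Galore 0.6.4 are named. The sources used here do not say whether libraries were pooled or IgG served as control. The deposited files were 6 peak lists, 1 per antibody. The deposited fold is a ratio of each peak to the background that the peak caller estimated, and significance is the deposited −log10 q-value, whose minimum was about 1.3 per list. The deposited score (10 times that value) and the −log10 p-value were not used. Peaks within a list did not overlap.

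Overlaps of at least 1 bp were computed with numpy 2.4.6 and pandas 2.3.3, and intervals with scipy 1.17.1. The interval functions were checked on simulated peaks. The RefSeq table of GRCg7b gave 17839 protein-coding genes on assembled chromosomes, without strand, and windows reached 1 kb to both sides of both gene ends. Chromosome lengths were the largest coordinate among peaks and genes. Clusters joined peaks with gaps of at most 50 kb.

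No test was run, as no value per library existed. The peaks and gene lists were chosen with earlier results of these data known. Named genes are the 20 with the strongest solitary peak at an end, those at the 10 widest peaks, in the 10 largest clusters or with the most peaks in the body, and list members. The 15 strongest peaks were added after values were seen. Genes with only a LOC identifier were counted, not named. Alternatives covered the width, q, overlap, lists, sequences, windows and cluster distance.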

Additional observations from a re-analysis of the deposited data

How the results depend on the processing

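Of 91 values recomputed for 10 results, 53 stayed within the error given for them (counts within 1.5 times) and 38 moved further. With a minimum width of 300 bp there were 8786 peaks of median fold 3.97, 10.5% at coding gene ends (1078 genes, 35 of the gene lists) and 71.8% inside coding genes (125 list genes), with a density ratio of microchromosomes to macrochromosomes of 2.61 and 75.9% with a neighbour within 50 kb. With 750 bp there were 208 peaks of median fold 4.62, 17.8% at ends (50 genes, 1 of the lists) and 80.3% inside genes (4 list genes), with a ratio of 4.24 and 12.0% with a neighbour. Requiring a −log10 q of 5 in SUZ12 left 1086 peaks of median fold 4.95 at the ends of 182 genes, with a ratio of 3.83 and 33.1% with a neighbour. Requiring it in the other lists gave 42.6% with a neighbour. When an overlap had to cover 50% of the smaller peak, 14.9% lay at ends. With no other peak within 1 kb, 171 genes had a peak at an end and 30.4% of peaks had a neighbour. Without the AEBP2 list the ratio was 2.78. Windows of 500 bp at gene ends held 8.65% of peaks at 166 genes (5 of the lists), and windows of 2.5 kb held 24.7% at 556 genes (17 of the lists). With all genes of the table, 16.3% lay at an end. Neighbours within 10 kb were found for 14.1% and within 100 kb for 55.4%. Per coding gene, an alternative chosen after seeing the data, the ratio was 1.22. Of the 81 peaks behind the named results, 28 remained at 750 bp, 69 at the stricter q and 57 with no other peak within 1 kb. No paired analysis was possible because each antibody has 1 list for all libraries, and leaving out a replicate was not possible either. GC content was not run, as no genome sequence was used here. Read depth is unknown, and short lists of genes give small counts.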
